A study of Mus musculus with 9 samples.

Results

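Genes of the Wnt pathway were followed through 9 expression arrays of mouse embryonic fibroblasts (MEFs, primary cultures grown from minced embryos). The members were chosen by name from the platform annotation: every Wnt, Fzd, Sfrp, Dkk, Rspo and Dvl gene with a number, together with Lgr4, Lgr5, Lgr6, Lrp5, Lrp6, Wif1, Axin1, Axin2, Lef1, Tcf7, Tcf7l1, Tcf7l2, Nkd1, Nkd2, Rnf43, Znrf3, Ctnnb1 and Apc. They came to 61 of 18193 genes, measured by 124 of 45101 probe sets. Tcf7 matched 0 probe sets in that annotation and was not analysed here. The arrays compare 3 lines from female embryos (D12.5 in the labels), with 3 arrays each. They are a KO line without Oga, a Het line heterozygous for the Oga deletion and a WT line. Oga codes for O-GlcNAcase, which strips the sugar O-GlcNAc from proteins. Floxed Oga mice, labelled as C57B1/6, had been crossed with mice of the MMTV-Cre transgene, in which a mouse mammary tumour virus promoter drives Cre, and heterozygous offspring were intercrossed. The labels do not say whether any of the cultured lines carried the transgene, nor which part of Oga is deleted. The design text calls the arrays technical replicates and the labels give 1 line per genotype. Every p-value here therefore measures the spread between arrays of a line, and genotype cannot be told apart from any other difference between the lines.

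Wnt proteins are secreted lipid-modified ligands that bind Frizzled receptors and the co-receptors Lrp5 and Lrp6. In the canonical branch this recruits Dishevelled, stops the Axin and Apc complex from marking beta-catenin for destruction, and lets beta-catenin act with the Tcf and Lef factors in the nucleus. R-spondins, through Lgr receptors, remove the ligases Rnf43 and Znrf3 that clear Frizzled from the surface, while Sfrp, Dkk and Wif1 proteins act outside the cell and mostly dampen the signal. In embryonic mesenchyme the pathway is known for its part in limb, skeletal and connective tissue patterning.

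The most abundant Oga probe set read 6.03, 6.08 and 6.08 on the KO arrays, 11.15 on each of the Het arrays and 11.88, 11.93 and 11.95 on the WT arrays, on the deposited log2 scale, which is the order of the labels. Pairs of arrays correlated at r = 0.997 to 0.999 within a line and at 0.989 to 0.996 between lines. Of 12 fibroblast markers 0 lay under the low-value cut (explained below) on all arrays. Their summed linear level ran from 176333 to 182810 in KO, 185834 to 187433 in Het and 188464 to 190008 in WT arrays, although Pdgfra, a defining surface receptor of fibroblasts, fell in the KO line (limma log2 difference -2.55 ± 0.076 SE, adjusted p = 2e-09). Markers of other cells moved too. Those said to rise or fall were called by the 2-fold rule given below. By that rule 0.988% of all genes rose and 2.58% fell in KO against WT. All 15 macrophage markers past the cut fell in KO against WT, and their summed level was 15886 to 16778 in KO, 45465 to 47866 in Het and 57620 to 58958 in WT arrays, with none under the cut on all arrays. Of 9 skeletal muscle markers 6 rose in KO against WT, with sums over 12 markers of 2947 to 3078 in KO, 1912 to 2099 in Het and 1251 to 1302 in WT arrays, and Myf5 and Ttn under the cut throughout. Of 9 smooth muscle and pericyte markers 5 rose (76753 to 78020 in KO, 59685 to 60690 in Het and 50967 to 51553 in WT arrays), and of 5 cartilage markers past the cut 3 fell (sums over 6 markers 2765 to 2894 in KO, 3429 to 3750 in Het and 4000 to 4192 in WT arrays; Matn1 under the cut throughout). Of 5 epithelial and mesothelial markers past the cut 2 rose, of 7 neural and glial markers 1 rose and 1 fell, and of the endothelial list only 1 marker passed the cut and was not called, with Pecam1, Cdh5, Tek and Tie1 under it throughout. The part of these markers in the results below was not tested, and in such bulk RNA fewer cells of a type and less RNA per cell cannot be told apart.

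Most Wnt pathway genes differed little between the lines. Probe sets with a mean over the 9 arrays below 6.22, the 40th percentile of the array, were left out as too low to test, and 91 member probe sets of 48 genes were left. A probe set was called when limma's Benjamini-Hochberg adjusted p over all 27022 probe sets was below 0.05 and the difference reached 2-fold, and a gene went by its most abundant probe set. In KO against WT 4 of 48 genes were called, 1 that rose (Wnt9a) and 3 that fell (Lgr5, Sfrp2 and Dkk2), where 0.988% of all 12962 genes rose and 2.58% fell. In Het against WT 2 of 48 fell (Sfrp2 and Dvl2) and 0 rose, where 0.201% of all genes fell and 0.0540% rose. In KO against Het 1 of 48 fell (Lgr5) and 0 rose, where 1.37% of all genes fell and 0.625% rose. Counted by probe set the calls were 4 of 91 in KO against WT (2.88% of all probe sets), 4 of 91 in Het against WT (0.359%) and 2 of 91 in KO against Het (1.64%). The KO and Het lines are set against the same WT arrays, so these comparisons share them.

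The median log2 difference over the 48 genes was -0.06 in KO against WT and -0.06 in Het against WT, beside -0.03 and -0.01 over all genes. The median size of a difference without its sign was 0.19 and 0.15 for the members, beside 0.15 and 0.10 for all genes. At a 1.5-fold minimum 7 of 48 genes passed in KO against WT (9.57% of all genes), 4 in Het against WT (1.82%) and 7 in KO against Het (6.90%). With no fold minimum 30 passed in KO against WT, 20 in Het against WT and 28 in KO against Het, where 50.6%, 32.6% and 49.2% of all genes did. Among probe sets 8.44% of all passed the 1.5-fold rule in KO against WT, 3.29% in Het against WT and 6.31% in KO against Het, and 47.1%, 36.6% and 46.1% with no fold minimum; the members' counts were 10, 7 and 10 of 91, and 50, 35 and 48 of 91. The median SD between the arrays of a line, over member probe sets, was 0.067 in KO, 0.057 in Het and 0.064 in WT.

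**Figure D1:**
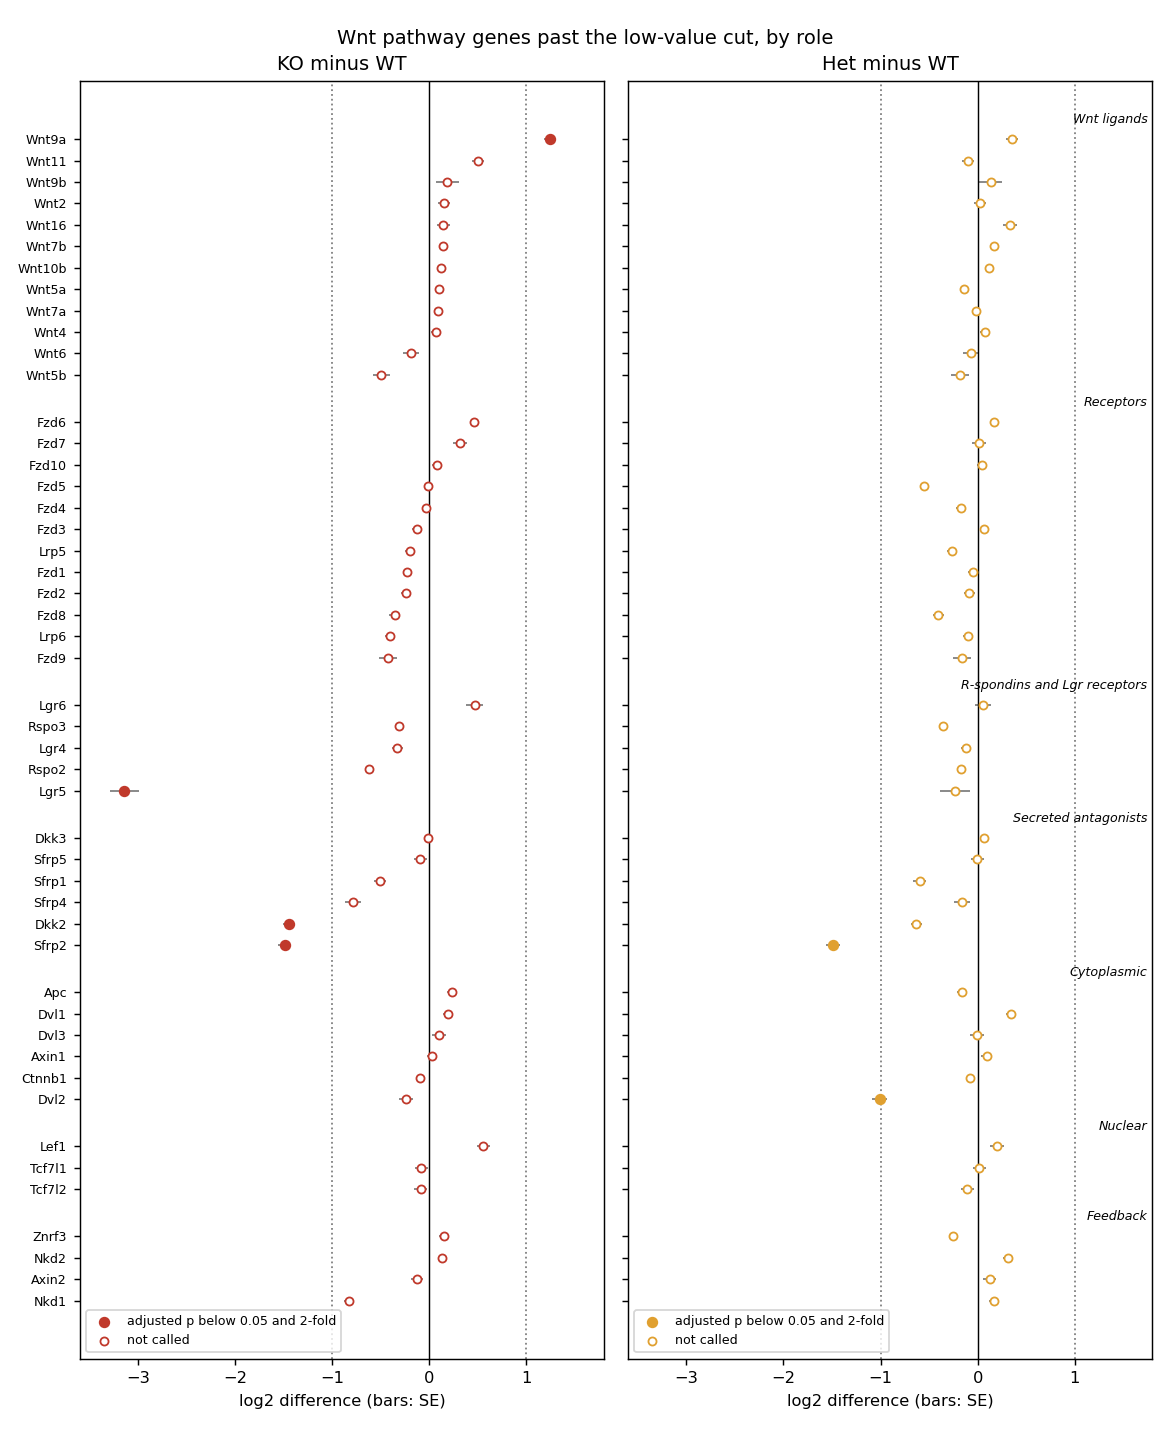
Log2 difference of each Wnt pathway gene past the low-value cut, by its most abundant probe set, grouped by role, for KO minus WT (left) and Het minus WT (right), with SE as bars and dotted lines at 2-fold. Wnt9a is the only filled point right of zero among these 48 genes in KO minus WT, and Lgr5 at -3.14 lies farthest left; in Het minus WT, Sfrp2 and Dvl2 are filled.

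Promoter windows are shown for the changed genes for which the RefSeq promoter table held one, since these are the stretches from which their transcripts start. Each runs from 250 bases before to 50 bases after a RefSeq gene start on mouse build GRCm38.p6, all on the plus strand: Wnt9a at chr11:59306680-59306979, Dkk2 at chr3:132085042-132085341, Sfrp2 at chr3:83766071-83766370 and Dvl2 at chr11:70000342-70000641. Capitals mark matches, on either strand, to the letters GGGCGG, known as the GC box, TATAAA, known as the TATA box, or CTTTGA, the core letters of sites for Tcf and Lef factors.
Wnt9a: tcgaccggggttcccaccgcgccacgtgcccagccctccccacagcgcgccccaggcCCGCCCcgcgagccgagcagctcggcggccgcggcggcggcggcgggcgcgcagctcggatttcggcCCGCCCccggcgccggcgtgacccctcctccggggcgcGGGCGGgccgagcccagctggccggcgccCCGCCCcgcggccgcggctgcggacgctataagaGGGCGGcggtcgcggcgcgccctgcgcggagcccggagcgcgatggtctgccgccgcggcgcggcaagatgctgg
Dkk2: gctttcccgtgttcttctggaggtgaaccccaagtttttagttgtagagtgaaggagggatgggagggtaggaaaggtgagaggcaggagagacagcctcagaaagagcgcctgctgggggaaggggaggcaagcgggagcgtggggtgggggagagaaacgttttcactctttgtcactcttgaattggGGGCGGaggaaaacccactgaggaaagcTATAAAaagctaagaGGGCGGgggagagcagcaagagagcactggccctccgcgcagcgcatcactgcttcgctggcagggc
Sfrp2: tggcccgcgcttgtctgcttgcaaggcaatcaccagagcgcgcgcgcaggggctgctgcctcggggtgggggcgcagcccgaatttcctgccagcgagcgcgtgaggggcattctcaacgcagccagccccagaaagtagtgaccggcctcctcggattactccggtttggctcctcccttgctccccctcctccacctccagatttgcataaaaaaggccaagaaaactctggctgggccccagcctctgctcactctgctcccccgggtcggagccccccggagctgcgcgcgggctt
Dvl2: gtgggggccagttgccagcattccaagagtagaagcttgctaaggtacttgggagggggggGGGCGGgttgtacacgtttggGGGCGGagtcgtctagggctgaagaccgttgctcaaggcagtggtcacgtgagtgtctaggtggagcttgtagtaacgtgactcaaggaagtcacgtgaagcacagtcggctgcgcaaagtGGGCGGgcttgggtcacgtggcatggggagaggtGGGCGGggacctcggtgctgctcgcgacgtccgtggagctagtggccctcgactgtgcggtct
The letters CTTTGA, on either strand, were in 0 of these 4 windows, which says only that they are not in these bases. They were in 5 of 50 windows of the 41 member genes found in the table (10%), those of Dkk1, Fzd1, Lef1, Wnt11 and Wnt5b, and in 16% of all 32851 windows. The Dkk2 window held TATAAA 32 bases before the start and 2 GC boxes. The Wnt9a window held 5 GC boxes and 58 CG steps at 83.3% G and C, against medians of 7 CG steps and 52.7% over all windows, and the Dvl2 window 4 GC boxes. GC boxes were in 35 of 50 member windows (70%) and 35.7% of all windows, while the Sfrp2 window held 0 of the 3 motifs. The 50 member windows had medians of 25.5 CG steps and 67.3% G and C, above those of all windows. The part of this base content in the motif shares was not tested.

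Among the ligands, of 19 Wnt genes 12 passed the cut. In KO against WT 1 rose and 0 fell, where 0.988% of all genes rose and 2.58% fell. Wnt9a, a ligand known from joint and skeletal development, read 9.59, 9.64 and 9.80 on the KO arrays, 8.72, 8.82 and 8.83 on the Het arrays and 8.46, 8.35 and 8.50 on the WT arrays. All KO arrays lay above all Het arrays, and all Het arrays above all WT arrays. The KO mean was 2.36-fold the WT mean (limma log2 difference 1.24 ± 0.063 SE, adjusted p = 8.9e-08). The Het line was 0.35 ± 0.063 above WT (adjusted p = 0.00173) and the KO line 0.89 above Het (adjusted p = 1.9e-06), both short of 2-fold. A less abundant Wnt9a probe set lay under the cut, with line means of 6.06 in KO, 5.48 in Het and 5.77 in WT.

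Wnt5a, the leading ligand of the branch that works without beta-catenin, differed little between lines. Its most abundant probe set averaged 10.60 ± 0.036 in KO, 10.36 ± 0.034 in Het and 10.50 ± 0.050 in WT (SD, n = 3 arrays each). The KO minus WT difference of its 4 probe sets past the cut ran from -0.24 to 0.20. Wnt16, which is known in bone and joint tissue, averaged 8.47 ± 0.076 in KO, 8.66 ± 0.12 in Het and 8.33 ± 0.084 in WT. Wnt11, another ligand of the beta-catenin-independent branch, stood 0.50 above WT in the KO line (adjusted p = 7.8e-05) and 0.61 above Het (2.7e-05), and its KO arrays did not overlap with either. Wnt5b lay the other way, 0.49 below WT in the KO line (adjusted p = 0.00107), with its other probe set at -0.51. None of these reached 2-fold. The genes Wnt1, Wnt2b, Wnt3, Wnt3a, Wnt8a, Wnt8b and Wnt10a had no probe set past the cut, so nothing is said of their differences.

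**Figure D2:**
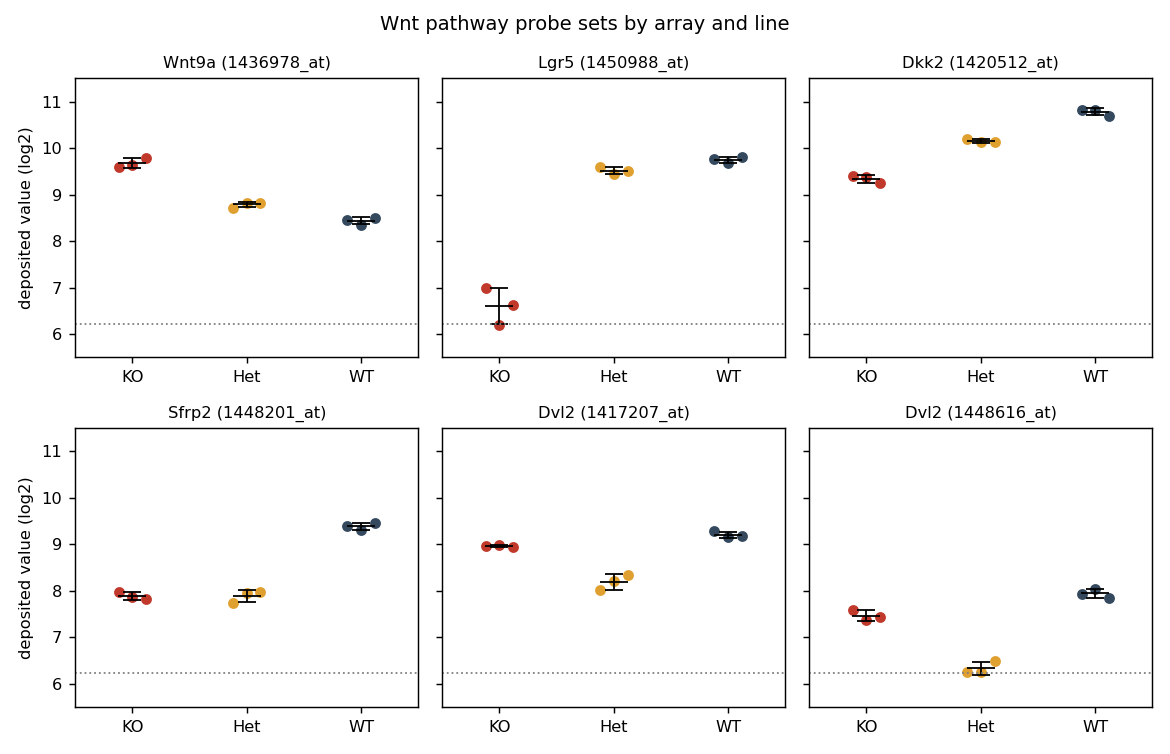
Deposited log2 values of 6 Wnt pathway probe sets on the KO, Het and WT arrays (points), with line mean and SD (bars, n = 3 arrays) and the low-value cut of 6.22 (dotted). Lgr5 is at 6.20 to 6.99 on the KO arrays and above 9 on all others, Sfrp2 is low on KO and Het arrays, Dkk2 is lowest in KO and highest in WT, Wnt9a is highest in KO, and both Dvl2 probe sets are lowest on the Het arrays.

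Of the 12 receptor genes 0 were called in any comparison. Of all genes 3.56% were called in KO against WT, 0.255% in Het against WT and 2% in KO against Het. A count of 0 among 12 genes is near these shares. With no fold minimum 9 of 12 in KO against WT had a limma adjusted p below 0.05, where 50.6% of all genes did. All 12 Frizzled and Lrp genes passed the cut, and their KO minus WT differences ran from -0.42 (Fzd9) to 0.46 (Fzd6), with a median of -0.16. Fzd2 averaged 12.45 ± 0.045 in KO, 12.60 ± 0.099 in Het and 12.69 ± 0.048 in WT at its most abundant probe set. Fzd1 averaged 11.64 ± 0.065 in KO, 11.82 ± 0.012 in Het and 11.87 ± 0.040 in WT at its most abundant probe set. Its other one put the Het line lowest, with means of 9.52 in KO, 9.26 in Het and 9.64 in WT. There Het minus WT was -0.38 (limma adjusted p = 0.00336). Lrp6, the main beta-catenin co-receptor, averaged 10.67 ± 0.052 in KO, 10.97 ± 0.068 in Het and 11.08 ± 0.059 in WT, which put the KO line 0.40 below WT (adjusted p = 9.7e-05). Fzd6 stood 0.46 above WT in the KO line (limma adjusted p = 9.7e-06) at its most abundant probe set, with no overlap there between KO and the other arrays. Its other probe sets gave 0.37 (adjusted p = 0.00025) and 0.13 (adjusted p = 0.288), and at the last of these KO and Het arrays overlapped. Het minus WT was 0.17 at the most abundant probe set, and -0.30 and 0.10 at the others. In the Het line Fzd5 stood at -0.55 from WT (adjusted p = 2.9e-05) at its most abundant probe set, where KO and WT differed by -0.01, and at 0.10 (adjusted p = 0.428) at its other one. Probe sets of Fzd2 did not report equal sizes: its least abundant one stood at -0.88 in KO against WT and -0.56 in Het against WT, while the others lay at -0.24 and -0.16 in the KO line.

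Lgr5 showed the largest difference of any member. This R-spondin receptor is a Wnt target and a marker of stem cells in the gut and other epithelia. It read 6.99, 6.20 and 6.62 on the KO arrays, 9.59, 9.43 and 9.52 on the Het arrays and 9.76, 9.67 and 9.81 on the WT arrays. The KO arrays lay far below all others, and 1 of them was under the low-value cut. Lgr5 was 8.82-fold lower in KO than in WT (limma log2 difference -3.14 ± 0.15 SE, adjusted p = 5.7e-08), and KO minus Het was -2.91 ± 0.15 (adjusted p = 1.9e-07). The KO mean of 6.60 is close to the cut. Het and WT differed by -0.23 (adjusted p = 0.257), with Het arrays all below WT arrays. The other Lgr5 probe set lay under the cut, with a mean of 6.20 in KO, 6.20 in Het and 6.19 in WT, so the fall rests on 1 probe set.

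The relatives of Lgr5 and their ligands did not share a fall of this size. Lgr4, a broadly expressed Lgr receptor, averaged 10.70 ± 0.081 in KO, 10.91 ± 0.065 in Het and 11.03 ± 0.029 in WT (KO minus WT -0.33, adjusted p = 0.00046). Lgr6 stood 0.46 higher in KO than in WT (limma adjusted p = 0.0012) at its most abundant probe set. At its other one the difference was 0.21 (adjusted p = 0.0463), and the KO and WT arrays overlapped. Of the R-spondins, Rspo2 averaged 10.74 ± 0.036 in KO, 11.20 ± 0.040 in Het and 11.37 ± 0.021 in WT. KO minus WT was -0.62 (adjusted p = 6.8e-07) without overlap at this probe set, short of 2-fold, and -0.07 at a less abundant one. Rspo3, known from vessel development, averaged 11.31 ± 0.013 in KO, 11.25 ± 0.030 in Het and 11.61 ± 0.043 in WT, so KO (-0.31) and Het (-0.36) lay below WT by similar amounts and its other probe set gave -0.33 and -0.27. Rspo1 and Rspo4 had no probe set past the cut.

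Secreted antagonists held 2 of the 4 genes called in KO against WT. Of 6 genes past the cut, 2 fell in KO against WT and 1 in Het against WT, with 0 that rose. Of all genes 2.58% fell in KO against WT and 0.201% in Het against WT. The median log2 differences of the 6 genes were -0.65 and -0.38 in these comparisons. Sfrp2, a Frizzled-related decoy that binds Wnt proteins, read 7.98, 7.87 and 7.83 on the KO arrays, 7.74, 7.95 and 7.98 on the Het arrays and 9.39, 9.31 and 9.45 on the WT arrays. The KO and Het arrays overlapped each other and lay below every WT array. Sfrp2 was 2.81-fold lower than WT in the KO line (limma log2 difference -1.49 ± 0.070 SE, adjusted p = 4.7e-08) and by the same size in the Het line (-1.49 ± 0.070, adjusted p = 6.7e-07), and KO minus Het was 0.00 (adjusted p = 0.995). Sfrp2 has a single probe set, and both comparisons share the WT arrays.

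Dkk2, which binds Lrp6 and can block or aid signalling by context, followed another course. It read 9.39, 9.37 and 9.24 on the KO arrays, 10.20, 10.13 and 10.13 on the Het arrays and 10.82, 10.83 and 10.70 on the WT arrays. The lines formed 3 separate steps with no overlap. Dkk2 fell 2.73-fold in KO against WT (limma log2 difference -1.45 ± 0.056 SE, adjusted p = 1.1e-08). Het was 0.63 below WT (log2 difference -0.63, adjusted p = 2.6e-05) and KO was 0.82 below Het (log2 difference -0.82, adjusted p = 1.4e-06), each short of 2-fold. Dkk3, a divergent member of the family, averaged 11.48 ± 0.038 in KO, 11.56 ± 0.048 in Het and 11.49 ± 0.017 in WT, and did not differ beyond that spread between KO and WT (-0.01, adjusted p = 0.863). Sfrp4, known from bone and endometrium, stood 0.79 below WT in the KO line (log2 difference -0.79, adjusted p = 2e-05) and was not called.

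Sfrp1 had 5 probe sets past the cut, and they disagreed in the Het line. The most abundant averaged 11.20 ± 0.018 in KO, 11.12 ± 0.14 in Het and 11.71 ± 0.031 in WT, a difference from WT of -0.51 in KO and -0.60 in Het. Probe set 1460187_at read 9.73, 9.72 and 9.51 on the KO arrays, 8.56, 8.65 and 8.79 on the Het arrays and 10.09, 10.06 and 9.99 on the WT arrays. By this probe set alone Sfrp1 was called lower in Het against WT (limma log2 difference -1.39 ± 0.073 SE, adjusted p = 1.3e-06). The other 4 ran from -0.60 to 0.01 in that comparison, and 1 of them (1438620_x_at) read 8.53, 8.53 and 8.52 as KO, Het and WT means. In KO against WT 4 of the 5 lay between -0.60 and -0.39.

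Among the cytoplasmic genes Dvl2 stood out in the Het line. Dvl2 encodes a Dishevelled protein, which passes the signal on from Frizzled. Its most abundant probe set, 1417207_at, read 8.96, 8.98 and 8.94 on the KO arrays, 8.02, 8.21 and 8.35 on the Het arrays and 9.28, 9.15 and 9.18 on the WT arrays. Its other one, 1448616_at, read 7.59, 7.36 and 7.44 on the KO arrays, 6.25, 6.26 and 6.49 on the Het arrays and 7.92, 8.05 and 7.85 on the WT arrays. By both, the Het arrays were the lowest without overlap and the KO arrays lay below the WT arrays. Dvl2 fell in Het against WT at both, with limma log2 differences of -1.01 ± 0.074 SE (adjusted p = 8.6e-06) and -1.61 ± 0.082 SE (adjusted p = 1.2e-06). In KO against WT the differences were -0.24 (adjusted p = 0.022) and -0.48 (adjusted p = 0.00077). KO stood above Het by 0.77 (adjusted p = 1.7e-05) and by 1.13 (adjusted p = 2.2e-06), and 1448616_at was called there. The call of the abundant probe set was lost with quantile normalization (-0.99), without WT replicate 1 (-0.97) or without Het replicate 1 (-0.92).

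The other cytoplasmic members were not called. Ctnnb1, which encodes beta-catenin, averaged 13.91 ± 0.053 in KO, 13.93 ± 0.015 in Het and 14.01 ± 0.018 in WT at its most abundant probe set. Its other probe sets, however, put the Het line lowest, at -0.42 and -0.64 from WT (adjusted p = 3.3e-05 and 8.5e-05), with KO at -0.21 and -0.25. Axin1, a scaffold of the destruction complex, averaged 10.33 ± 0.072 in KO, 10.40 ± 0.077 in Het and 10.31 ± 0.015 in WT, and its lines overlapped. Dvl1 averaged 11.41 ± 0.048 in KO, 11.56 ± 0.037 in Het and 11.22 ± 0.041 in WT at its most abundant probe set. There Het was 0.34 above WT (limma adjusted p = 0.00026), whereas Dvl2 was lower. At the other Dvl1 probe set Het was only 0.07 above WT (adjusted p = 0.215). Apc, the tumour suppressor of the destruction complex, stood at 0.23 in KO and -0.16 in Het against WT at its most abundant probe set. Its other probe sets past the cut gave 0.11 and 0.03 in KO, and -0.05 and -0.51 in Het.

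Probe sets of a gene did not always give the same answer. Of 27 member genes with more than 1 probe set past the cut, all probe sets of a gene had the same sign in 17 in KO against WT, 11 in Het against WT and 14 in KO against Het. Signs were counted however small the difference, such as -0.01 and 0.02 for Tcf7l1 in Het against WT. The same count was not made over all genes, so these counts cannot set the members apart. The widest span within a gene was 0.77 in KO against WT, 1.39 in Het against WT and 1.48 in KO against Het, the last 2 of them Sfrp1. Control probe sets at the 3' end of actin, set against those at its 5' end as a sign of RNA quality, read higher by 0.073 ± 0.019 in KO, 0.11 ± 0.015 in Het and 0.072 ± 0.011 in WT (SD, n = 3 arrays, log2). For GAPDH this control value was -0.07 ± 0.032 in KO, -0.0020 ± 0.0059 in Het and -0.077 ± 0.0097 in WT. The Het arrays were thus the highest by either control, and the part of this in the probe set differences was not tested.

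**Figure D3:**
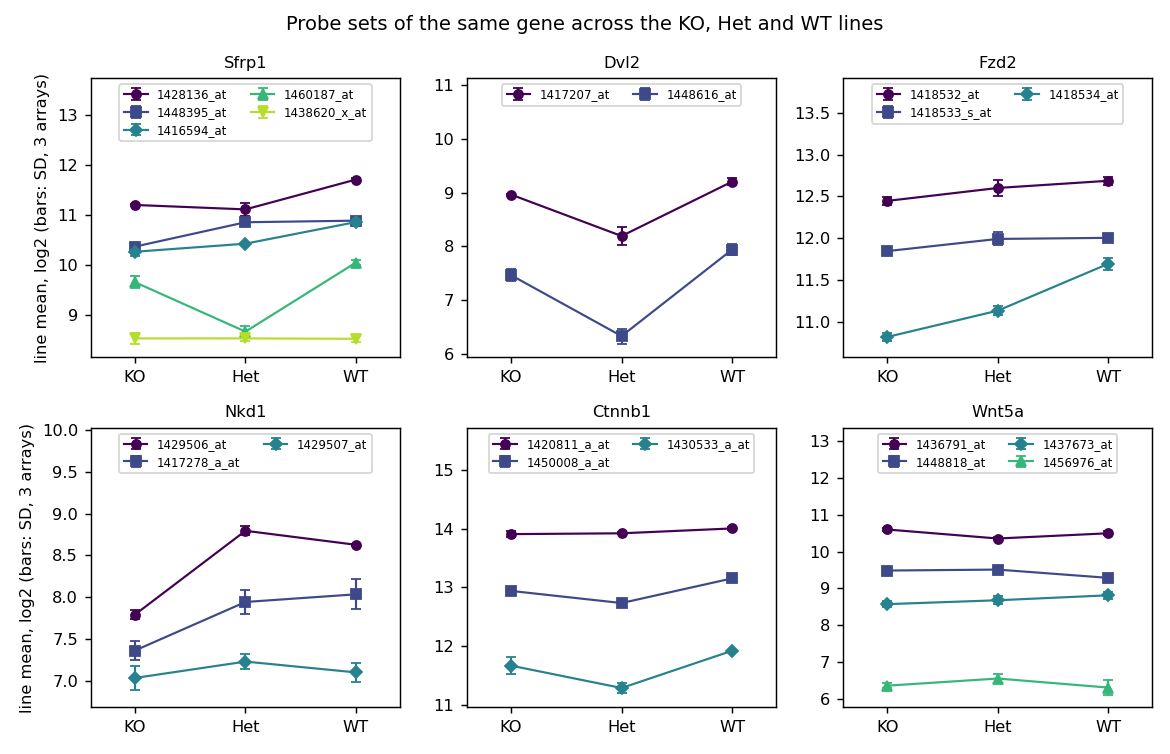
Line means (SD bars, n = 3 arrays, log2) of every probe set past the low-value cut for 6 Wnt pathway genes in the KO, Het and WT lines. Both Dvl2 probe sets are lowest in Het, by unequal amounts (-1.01 and -1.61 from WT), in Sfrp1 the Het mean of 1460187_at lies far below the others of that probe set (-1.39 from WT) while 1438620_x_at is flat, and in Fzd2 the widest gap between KO and WT is that of 1418534_at.

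Nuclear and feedback genes, which respond to or carry out beta-catenin signalling, held 0 calls. For so few genes that is near the share of all genes called. This share was 3.56% in KO against WT, 0.255% in Het against WT and 2% in KO against Het. With no fold minimum, 1 of 3 nuclear and 3 of 4 feedback genes had a limma adjusted p below 0.05 in KO against WT, where 50.6% of all genes did. Tcf7l1, mostly a repressor, averaged 10.76 ± 0.085 in KO, 10.86 ± 0.095 in Het and 10.84 ± 0.076 in WT. Tcf7l2 averaged 9.32 ± 0.054 in KO, 9.30 ± 0.11 in Het and 9.41 ± 0.090 in WT, and the lines of both overlapped at these most abundant probe sets. Of the other Tcf7l2 probe sets, 1429427_s_at gave 0.30 (adjusted p = 0.00389) and 1426639_a_at gave -0.25 (adjusted p = 0.00589) in KO against WT, each without overlap and in opposite directions. Lef1, itself a target, read 7.23, 7.37 and 7.38 on the KO arrays, 6.99, 6.96 and 6.96 on the Het arrays and 6.70, 6.67 and 6.94 on the WT arrays, a KO minus WT difference of 0.56 (adjusted p = 9.1e-05) without overlap. Axin2, the most widely used readout of the pathway, read 8.29, 8.28 and 8.40 on the KO arrays, 8.44, 8.62 and 8.66 on the Het arrays and 8.50, 8.37 and 8.48 on the WT arrays. The KO and WT arrays of Axin2 overlapped (-0.13 ± 0.065, adjusted p = 0.134), while the KO arrays lay below all Het arrays (KO minus Het -0.25, adjusted p = 0.00939).

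Nkd1, an inhibitor of Dishevelled induced by Wnt signals, was lowest in the KO line. It read 7.85, 7.79 and 7.74 on the KO arrays, 8.76, 8.85 and 8.76 on the Het arrays and 8.63, 8.61 and 8.64 on the WT arrays, so the KO arrays lay below all others. The log2 differences were -0.83 ± 0.045 from WT (SE, limma adjusted p = 1.5e-07) and -0.999 ± 0.045 from Het (adjusted p = 7.5e-08), just short of 2-fold. It reached 2-fold from Het without Het replicate 1 or 3 (both -1.01) or without KO replicate 1 (-1.03). A further Nkd1 probe set gave -0.67 from WT and the weakest -0.07. Its paralogue Nkd2 averaged 9.04 ± 0.029 in KO, 9.22 ± 0.078 in Het and 8.91 ± 0.031 in WT. The ligase gene Znrf3 stood 0.40 higher in KO than in Het (adjusted p = 7.2e-05), and Rnf43 had no probe set past the cut.

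Other genes of the pathway were taken from a list of 90 names, of which 84 matched the annotation and 77 passed the cut. In KO against WT 2 rose, 3 fell and 72 were not called, in Het against WT 0 were called, and in KO against Het 2 fell. Over all genes 0.988% rose and 2.58% fell in KO against WT. These shares were 0.0540% and 0.201% in Het against WT, and 0.625% and 1.37% in KO against Het. With no fold minimum, at a limma adjusted p below 0.05, 28 of the 77 were higher and 17 lower in KO against WT (50.6% of all genes in either direction), 14 higher and 15 lower in Het against WT (32.6%), and 30 higher and 18 lower in KO against Het (49.2%). All KO against WT calls fell among 19 textbook downstream genes of beta-catenin, while 13 secretion and surface genes, 8 planar polarity genes, 22 cytoplasmic genes and 15 nuclear cofactors held 0. These downstream genes answer to other pathways as well. Of the uncalled groups the largest KO minus WT differences included those of Gpc6 (-0.72) and Gpc3 (-0.65), surface proteoglycans. In the polarity branch they were those of the formins Daam1 (0.56) and Daam2 (-0.44). Further ones were those of the casein kinases Csnk1g1 (0.56) and Csnk1e (0.45), and the nuclear cofactors Tle2 (-0.89) and Tbl1xr1 (-0.55). Daam1 was not uniform: its other probe sets past the cut gave 0.56 (limma adjusted p = 2.9e-05) and -0.54 (adjusted p = 5.7e-05). The last, its least abundant, had a KO mean of 6.16, under the low-value cut.

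Fgf9, a growth factor of the developing limb and lung, read 8.45, 8.47 and 8.39 on the KO arrays, 7.66, 7.67 and 7.58 on the Het arrays and 7.16, 6.92 and 6.94 on the WT arrays. It rose in KO against WT by 1.43 ± 0.063 on the log2 scale (SE, limma adjusted p = 3e-08), in 3 separate steps. A less abundant Fgf9 probe set gave 0.67 (1.59-fold, adjusted p = 2.3e-05), which was not called, and its Het and WT arrays overlapped. Cd44, the hyaluronan receptor, averaged 12.54 ± 0.088 in KO, 11.97 ± 0.068 in Het and 11.48 ± 0.042 in WT and rose by 1.06 ± 0.056 (adjusted p = 1.2e-07), with its other probe sets at 1.01 and 0.92. At the last of these Het minus WT was -0.23. Fgf18, which guides cartilage and bone growth, fell in KO against both other lines: it averaged 8.84 ± 0.096 in KO, 10.03 ± 0.11 in Het and 9.97 ± 0.045 in WT (-1.13 from WT, adjusted p = 2.4e-07, and -1.20 from Het, adjusted p = 2.7e-07). Id2, an inhibitor of helix-loop-helix factors, fell by 1.13 (adjusted p = 1.1e-07; other probe sets -0.90 and -0.95, not called) and Sox9, the master factor of cartilage, fell by 1.01 (adjusted p = 4.1e-06). Sox9 missed 2-fold with quantile normalization (-0.96), with median centring (-0.99), without WT replicate 3 (-0.97) or without KO replicate 3 (-0.92). It is also itself 1 of the 3 cartilage markers, of 5 past the cut, that fell, the others being Col9a1 and Comp. Tle2, a Groucho co-repressor of Tcf factors, averaged 7.62 ± 0.037 in KO, 8.78 ± 0.11 in Het and 8.50 ± 0.022 in WT, and fell in KO against Het (log2 difference -1.17 ± 0.055, adjusted p = 9.3e-08).

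**Figure D4:**
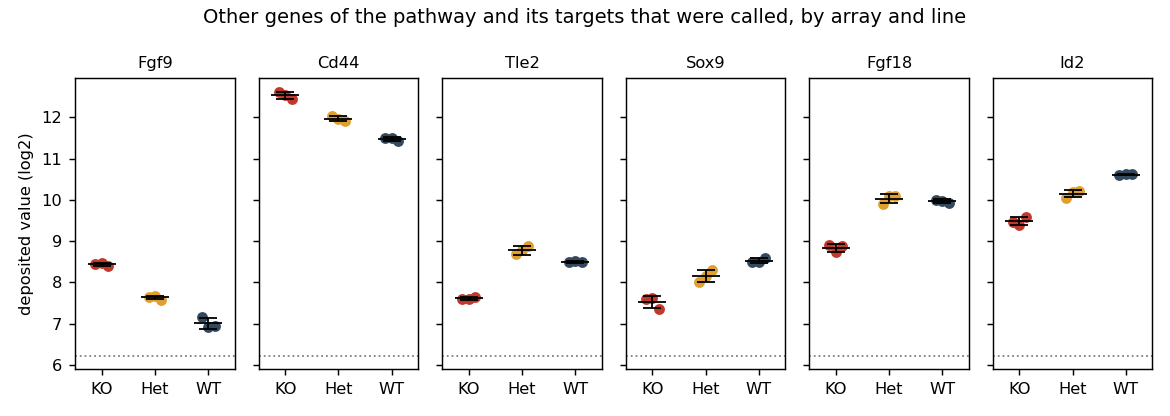
Deposited log2 values of the 6 other pathway and downstream genes called in any comparison, on the KO, Het and WT arrays (points), with line mean and SD (bars, n = 3 arrays) and the low-value cut of 6.22 (dotted). Fgf9 and Cd44 are highest in KO and lowest in WT, Sox9 and Id2 the other way round, and Tle2 and Fgf18 are lowest in KO with the Het mean above WT.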

How the data were processed

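RNA of 9 arrays (3 lines, 3 arrays each) was labelled with biotin by the Affymetrix procedure, per the labels' protocols. The authors deposited processed values of 45101 probe sets; The submitters' processing notes name GCOS and Partek without a role, and the labels state no normalization. The deposited log2 values were thus processed by the authors in a way not fully stated, their log2 scale was read from their range (3.25 to 15.1, array medians 6.87 to 6.95), and they were used unaltered. Arrays give no read depth, and their number limits the precision.

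The 64 control probe sets and those in the lowest 40% by mean over 9 arrays were left out (27022 kept). limma 3.58.1 (lmFit, eBayes; R 4.3.3) was fitted over all 9 arrays with line as the factor, and adjusted over all kept probe sets. Symbols of all 124 member probe sets matched RefSeq by Entrez identifier. Promoter sequences are RefSeq's (GRCm38.p6). Named genes were all called members, the 3 most abundant per role, and called or leading genes of the pathway list; further ones were chosen after their values were seen. Members and lists were chosen with earlier results of these data known. The fit was tested on simulated data. Alternatives covered normalization, filters, probe set choice, fold minimum, lines fitted, variance model, a replicate block and each array left out. Deviations of same-numbered arrays of different lines correlated from -0.151 to 0.304, and those of differently numbered ones from -0.229 to 0.21. The main fit used no pairing, and with 3 arrays per line these values cannot show that none exists.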

Additional observations from a re-analysis of the deposited data

How the results depend on the processing

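Lgr5, Sfrp2, Dkk2 and Wnt9a kept their KO against WT calls under all 21 alternatives, with log2 differences from -3.34 to -2.94, -1.54 to -1.43, -1.49 to -1.40 and 1.18 to 1.28. Sfrp2 in Het against WT (-1.54 to -1.42) and Lgr5 in KO against Het (-3.10 to -2.71) did so too, and no called result changed sign. Among differences that were not called, 63 values of 30 results changed sign under some alternative, with main sizes of at most 0.24. Axin1, Dkk3 and Fzd5 in KO against WT and Sfrp2 in KO against Het were among them. Some with a limma adjusted p below 0.05 changed sign with the mean of probe sets. In KO against Het these included Wnt5a (0.24 to -0.02), Fzd1 (-0.18 to 0.04) and Fzd3 (-0.20 to 0.003). In Het against WT Fzd6 went from 0.17 to -0.01. Dvl2 in Het against WT kept 18 of 21 (-1.31 to -0.92). Not all 21 alternatives could lose a call. The lower fold minimums cannot, by construction. Only normalization, the mean of probe sets and arrays left out could change the size of a gene's difference. The rest, such as the filters, variance model and replicate block, tested its adjusted p alone. The replicate block left the genes called at 4, 2 and 1 in KO against WT, Het against WT and KO against Het. A 1.5-fold minimum gave 7, 4 and 7 genes and 10, 7 and 10 probe sets, and no fold minimum gave 30, 20 and 28 genes and 50, 35 and 48 probe sets, by construction. Quantile normalization gave 1 gene in Het against WT, and leaving out the lowest 60% gave 1 probe set in KO against Het, where fewer probe sets were tested. Dvl2 probe set 1448616_at, with a mean of 7.25 over the 9 arrays, was no longer among those tested there, and Lgr5 kept its call. With single arrays left out the counts of genes were 4 throughout, 1 to 2 and 1 to 2, and those of probe sets 4 throughout, 3 to 4 and 2 to 4; the cause of these moves was not tested beyond the single calls named above. Sfrp1 probe set 1460187_at reached 2-fold in KO against Het with median centring (1.04) and without Het replicate 3 (1.05) or KO replicate 3 (1.06). With the mean of probe sets Cd44 (0.996) and Id2 (-0.99) missed 2-fold. The spread between arrays limits what can be told apart, and 1 line per genotype limits what it can be laid to.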

Other observations

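The Wnt10b probe set held the same deposited value, 6.72, on all 3 KO and all 3 Het arrays and 6.58, 6.54 and 6.67 on the WT arrays. It was the 1 member probe set of 91 (1.10%) with equal values on every array of a line, as were 294 of all 27022 (1.09%).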
